A study of Drosophila melanogaster with 24 samples.

Results

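The 200 brightest transcripts of whole female Drosophila melanogaster were followed across 2 diets and the drug RU486, on 24 NimbleGen oligonucleotide arrays. They were taken from 16637 transcripts on the arrays as those with the highest mean log2 brightness over all 24 arrays, where a transcript's value is the mean of its probes. The members were thus chosen by their measured mean brightness, so their height is a description. No difference between groups was used in the choice, but a high level in only some of the groups can carry a member in. Brightness depends on each probe as well as on the amount of RNA, so a rank of brightness is not a rank of abundance. The members' means ran from 13.31 to 14.50 log2, against a median of 9.65 over all transcripts. At the edge of the choice, FBtr0085062 and FBtr0076488 lay just inside at 13.316 and 13.312, and FBtr0073044 and FBtr0080182 just outside at 13.312 and 13.311.

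Each array held Cy3-labelled cDNA from a pool of about 35 females aged 13 days. All flies, the controls too, carried the genotype +/+; Act5c-GS-Gal4/+; P{GD3482}v8105 /+. They held a single copy of the Act5c GeneSwitch driver, active broadly in the body when RU486 is fed, and a single copy of the RNAi insertion it then expresses. There were 4 groups of 6 pools, since each of the diets AL and DR was fed with or without the drug. Dietary restriction (DR) lasted 10 days. AL is not spelled out in the labels and stands here for the comparison diet. No group with RU486 lacked the transgene, so the drug's own effect and that of the switched-on RNAi cannot be told apart.

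As background, the brightest signals of a whole fly usually come from genes that nearly every cell uses heavily, such as those for ribosomal proteins, mitochondrial enzymes and the cytoskeleton. Genes of large single organs, such as flight muscle, gut, fat body and, in females, the ovary with its yolk and eggshell, add to them. Dietary restriction in flies lengthens life and lowers egg laying, and it shifts the fat body, gut and ovary. Which of these sources the members stand for could be settled for few of them. The arrays identify transcripts by FlyBase transcript numbers, and the table of RefSeq genes used here gave 1 symbol for 2 of the 200, several for 1 and none for 197. The named members are rdx, an adaptor of a Cullin-3 ubiquitin ligase that acts on Hedgehog signalling, and His4r, a histone H4 gene expressed outside S phase. Binding of its probes to RNA of the other histone H4 genes was not tested. Neither belongs to the marker and pathway lists drawn up for muscle, ovary, gut, fat body, ribosome, glycolysis and the like, so these lists could be applied to 0 members. The tissue was not checked by markers. The other members are given by identifier.

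Of the 200, 199 have 8 probes. All 200 lay above the random-probe background on all 24 arrays, which follows from the choice by brightness. Their 1595 probes had means between 11.51 and 14.92 log2, only 9 of them under 12 and 421 at 14 or more. In 89 members all probes lay within 1 log2 of each other. The SD between pools of a group had a median of 0.153 log2 over the members, against 0.141 over all transcripts and 0.144 over the 200 next brightest.

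The same transcripts were brightest in every group for the most part. When the brightest 200 were drawn up from each group's own mean, 159 members were in all 4 lists, 22 in 3, 18 in 2 and 1 in a single list. On single arrays 88 transcripts were among the brightest 200 every time. The lowest rank that any member held in a group was 424. Another 43 transcripts, outside the 200, reached the top 200 of at least 1 group.

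FBtr0085893 was the brightest transcript, with a mean of 14.50 log2 across arrays. Its pools ran from 14.36 to 14.81 with a median of 14.42 on AL without RU486, and from 14.11 to 14.64 with a median of 14.48 on AL with RU486. On DR they ran from 14.36 to 14.66 with a median of 14.48 without RU486, and from 14.46 to 14.75 with a median of 14.58 with it. The 4 groups overlapped, and it ranked first in each group except DR without RU486, where it ranked second. FBtr0072174, the second brightest at 14.49, took the first place there, with a mean of 14.62 ± 0.11 (SD, n = 6) against 14.41 ± 0.11 on AL without RU486.

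A shift shared by the members went with single arrays as well as with diet. The median of the 200 on an array averaged 13.61 ± 0.10 log2 (SD, n = 6) on AL without RU486 and 13.77 ± 0.08 on DR without RU486. With RU486 it averaged 13.64 ± 0.12 on AL and 13.67 ± 0.12 on DR. The median of all transcripts on an array was also higher on DR than on AL. It went from 9.58 ± 0.03 to 9.70 ± 0.01 without RU486, and from 9.58 ± 0.03 to 9.67 ± 0.07 with it. The median of the single transcripts' diet differences was nevertheless below 0, at −0.07 without and −0.04 with RU486. On AL without RU486, pool 6 stood above the rest at 13.80, and only 11 of the 200 members lay below their group mean there. Pool 1 of AL with RU486 stood low at 13.43, with 166 members below their group mean, and pool 3 of DR with RU486 at 13.50, with 167 below. Such one-sided counts were not confined to these arrays. Pool 5 of DR without RU486 had 165 below and pool 6 of AL with RU486 164. Pool 2 of AL with RU486 had 14 below and pool 1 of DR with RU486 17. Pool 1 of AL with RU486 and pool 3 of DR with RU486 also had the widest scatter. There 22 and 52 members lay more than 0.5 log2 under their group mean, 7 of them on both, against at most 2 members on any of the other 22 arrays. Counts without these arrays or on another scaling stand beside the results they change. The cause of their shift was not tested.

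**Figure D1:**
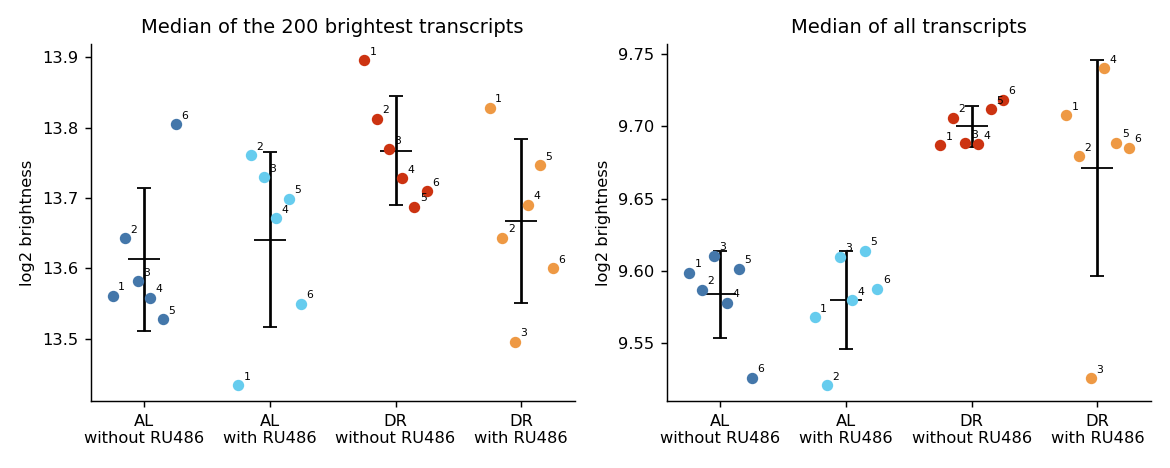
Median log2 brightness of the 200 brightest transcripts (left) and of all transcripts (right) on each of the 24 arrays, as points numbered by pool, with the mean and SD of each group of 6 in black. The medians of the 200 lay higher on DR than on AL without RU486 on average, but AL without RU486 pool 6 at 13.80 was higher than most DR pools, and pool 1 of AL with RU486 was lowest at 13.43.

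The first comparison was diet without RU486, DR minus AL. As deposited, most members were brighter on DR by a small amount, and a few moved by 1.5-fold or more. With values as deposited, 66 members rose and 7 fell at an adjusted p under 0.05, or 33% and 3.5% of the 200. Over all transcripts 29.7% rose and 35.5% fell, so that 65.3% were called against 36.5% of the members. The median difference was 0.15 log2 over the members and −0.07 over all transcripts, and 163 members (81.5%) had a difference above 0, against 42.6% of all. The median size, without sign, was 0.17 log2 in the members, or 1.13-fold, against 0.27 in all, or 1.21-fold. At 1.5-fold or more 7 members rose and 2 fell, against 14.9% and 4.42% of all transcripts. The groups of 6 did not overlap for 24 members higher and 3 lower on DR, with 24% and 24.2% over all. Bulk RNA of whole flies cannot tell fewer cells of a type from less RNA per cell, here or below.

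The split between rises and falls depended on the scaling of the arrays. The 163 members above 0 became 114 after quantile normalization, 127 centred on array medians and 100 centred on the 200, and their median of 0.15 log2 became 0.02, 0.04 and 0.00. After quantile normalization 21 members rose and 26 fell, and after centring each array on its median over all transcripts 20 rose and 23 fell. With each array centred on the median of the 200 themselves, which shows what moved relative to the other bright transcripts, 16 rose and 30 fell. On all 4 scalings the same 15 members rose and the same 7 fell, and 0 were called in opposite directions by different scalings. Here and below, the shares of all transcripts called on the other scalings are not given, so these counts are not set against them. Without pool 1 of AL with RU486 and pool 3 of DR with RU486, 99 rose and 9 fell. Neither array is in this comparison, so the differences stayed the same, and the arrays bear on it by way of the pooled residual variance. The share of all transcripts called without them is not given.

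FBtr0083857 rose most. On AL without RU486 its pools ran from 12.83 to 13.06 log2 with a median of 12.93, and on DR from 13.91 to 14.001 with a median of 13.97. The groups lay nearly 1 log2 apart with little spread in either. The rise was 1.01 ± 0.07 log2 (SE), or 2.02-fold, with an adjusted p of 4.11e-12, and all 8 probes rose, by 0.61 to 1.50. Its rank went from 352 on AL to 52 on DR. FBtr0077038 rose by 0.83 ± 0.11, or 1.78-fold (adjusted p = 2.26e-07). Its pools ran from 12.88 to 13.27 on AL and from 13.65 to 14.16 on DR, without overlap, and all 8 probes rose.

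FBtr0080521 fell most. Its pools ran from 13.74 to 14.06 log2 with a median of 13.98 on AL, and from 12.80 to 13.16 with a median of 13.02 on DR. Every DR pool lay below every AL pool. It fell by 0.94 ± 0.08 on the log2 scale (SE), or 1.92-fold lower, with an adjusted p of 4.99e-10, with all 8 probes down, and its rank went from 32 to 371. FBtr0079239 fell by 0.65 ± 0.11, or 1.57-fold lower (adjusted p = 1.59e-05), from pools of 13.86 to 14.25 on AL to pools of 13.33 to 13.63 on DR. The differences of these 4 members kept their sign and passed in all 35 alternatives, between 0.86 and 1.03 for FBtr0083857 and between −1.095 and −0.899 for FBtr0080521.

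Of the named members, His4r ran from 13.48 to 13.85 log2 with a median of 13.55 on AL and from 13.83 to 13.98 with a median of 13.90 on DR. The groups overlapped only at AL pool 6. The rise was 0.31 ± 0.10 (SE, adjusted p = 0.00682) with all 8 probes up, and the call was lost after quantile normalization (0.18, adjusted p = 0.071), after centring on array medians (0.19, adjusted p = 0.074) and after centring on the 200 (0.15, adjusted p = 0.076). The pools of rdx ran from 13.64 to 14.20 on AL and from 13.57 to 13.97 on DR, a wide overlap. Its difference was −0.03 ± 0.10 log2, with a 95% interval of −0.24 to 0.17, and it passed only after centring on the 200, at −0.19 (adjusted p = 0.033).

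**Figure D2:**
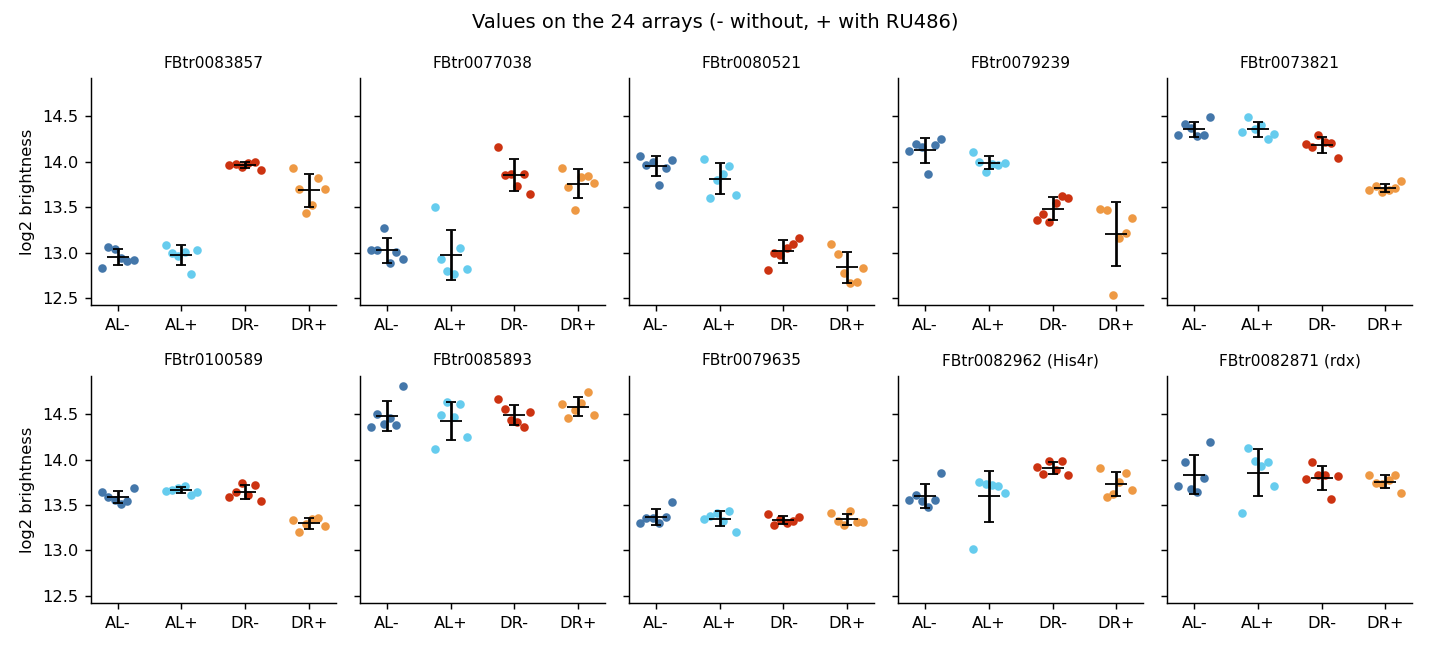
Log2 brightness of 10 members on the 24 arrays, as points in pool order within each group, with the mean and SD of each group of 6 in black; − is without and + with RU486. FBtr0083857 and FBtr0077038 were higher on DR, FBtr0080521 and FBtr0079239 lower, and FBtr0073821 and FBtr0100589 lay lowest on DR with RU486.

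With RU486, the diet difference was called for fewer members. In this comparison 20 rose and 11 fell on DR, or 10% and 5.5% of the 200, against 24.5% and 24.3% of all transcripts, or 15.5% called against 48.8%. The median difference was 0.05 log2 over the members and −0.04 over all, 119 members (59.5%) had a difference above 0 against 44.2% of all, and the median size was 0.10 and 0.19 log2. At 1.5-fold or more 3 rose and 3 fell, against 9.91% and 1.97% of all. The groups did not overlap for 9 members higher and 5 lower, against 14.1% and 10.9%. On other scalings the median of the members lay at 0.00 log2 with quantiles (101 above 0), at −0.04 centred on array medians (67 above 0) and at 0.02 centred on the 200 (110 above 0). Quantile normalization gave 17 and 22 calls, centring on array medians 9 and 30, and centring on the 200 themselves 17 and 13, with the same 9 higher and 9 lower on all 4 scalings. Without the 2 arrays of wide scatter 19 rose and 14 fell.

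FBtr0077038 was at the top here, with pools of 12.77 to 13.50 log2 on AL (median 12.87) and 13.47 to 13.93 on DR (median 13.80). The highest AL pool overlapped the lowest DR pool. It rose by 0.78 ± 0.11 (SE), or 1.72-fold, and FBtr0083857 by 0.71 ± 0.07, or 1.64-fold (adjusted p = 1.10e-06 and 4.46e-09). FBtr0080521 again fell most. Its pools ran from 13.60 to 14.03 on AL and from 12.67 to 13.09 on DR, and it fell by 0.98 ± 0.08, or 1.97-fold lower (adjusted p = 6.06e-10). FBtr0079239 fell by 0.78 ± 0.11, from pools of 13.89 to 14.11 to pools of 12.53 to 13.48. The lowest of these, 12.53, came from DR pool 3, far under the group median of 13.30. His4r differed by 0.14 ± 0.10 (adjusted p = 0.24) and rdx by −0.10 ± 0.10 (adjusted p = 0.43), and neither passed.

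The diet comparisons without and with RU486 share no arrays, but both tests of a transcript use the same pooled residual variance. Both passed for 15 members that rose and 5 that fell, with 0 in opposite directions. Over all transcripts these shares were 22.5%, 19.2% and 0.162%. The 15 rose by 0.16 to 1.01 log2 without and by 0.15 to 0.78 with RU486, and 12 of them rose by less with it. The 5 that fell did so by 0.17 to 0.94 without and by 0.35 to 0.98 with RU486, and 2 of them fell by less with it. As rises called on all 4 scalings in both comparisons 8 members remained, and as falls 5. The sign was the same in 138 of the 200 members and in 14158 of all 16637 transcripts. Across these 200 members Pearson's r of the 2 differences was 0.717 and Spearman's rho 0.370, against 0.905 and 0.839 across all 16637. The members within a comparison share their arrays and so any shift of an array, and they are no independent points.

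**Figure D3:**
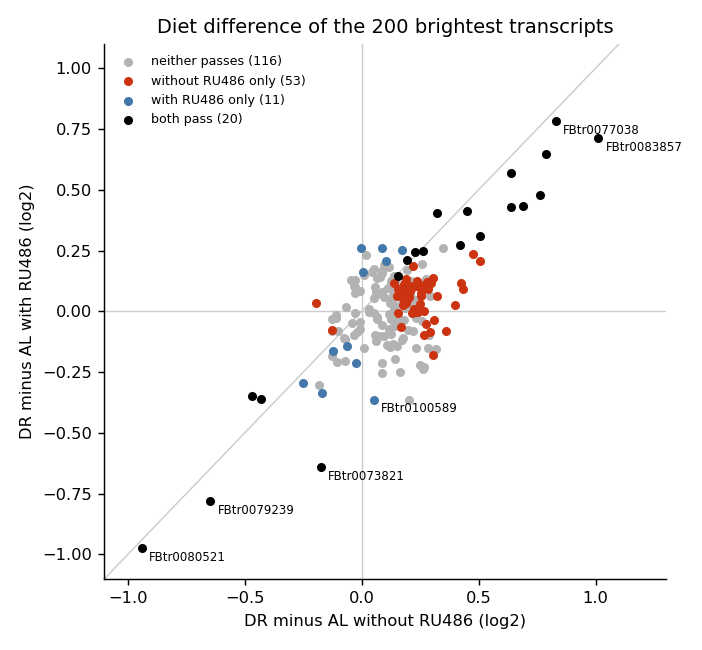
DR minus AL in log2 for each of the 200 members, without RU486 (horizontal) and with RU486 (vertical), coloured by which comparison passed at an adjusted p under 0.05; the diagonal marks equal differences. FBtr0080521 and FBtr0077038 lie near the diagonal, FBtr0083857 lies below it at 1.01 and 0.71, FBtr0073821 and FBtr0100589 lie farther below it, and most members form a cloud right of 0 and around 0 vertically.

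With RU486 on AL none of the members passed the threshold. In limma 0 of 200 passed, against 0.625% of all transcripts, and 7 members (3.5%) had an unadjusted p under 0.05, against 8.45% of all. The other alternatives gave 0 as well, with quantile normalization, both centrings, array weights, the pool block and each array left out in turn among them. The differences ran from −0.19 to 0.23 log2 with a median of 0.01, and 115 members (57.5%) lay above 0 against 48.7% of all. The groups did not overlap for 1 member higher and 0 lower, against 0.619% and 0.769% of all. For 129 members the 95% interval of the difference lay inside 1.2-fold in both directions, or 64.5% against 59.9% of all transcripts. His4r lay at −0.01 ± 0.10 log2 (SE) and rdx at 0.02 ± 0.10. The pools of His4r ran from 13.02 to 13.75 with RU486, and its lowest value was pool 1, far under the group median of 13.71.

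Few members passed the threshold with RU486 on DR, a smaller share than over all transcripts, though most lay slightly lower as deposited. Of the 200, 8 fell and 0 rose, or 4% and 0%, against 7.78% and 5.95% of all transcripts (13.7% in either direction). At an unadjusted p under 0.05 there were 37 members, or 18.5%, against 29% of all. The median difference was −0.10 log2 over the members and 0.00 over all, and only 41 members (20.5%) had a difference above 0, against 51.3% of all. None reached 1.5-fold, which 0.968% of all transcripts did as falls and 0.0841% as rises. On other scalings 81 members lay above 0 with quantiles, 57 centred on array medians and 101 centred on the 200. The groups did not overlap for 3 members lower and 0 higher, against 2.49% and 2.77% of all. Quantile normalization gave 1 rise and 4 falls, centring on array medians 0 and 5, and centring on the 200 themselves 0 and 2. The number also turned on single arrays. It was 4 without pool 3 of DR with RU486, 5 without pool 2 or pool 6 of that group and 5 without pool 2 or pool 5 of DR without RU486. It was 24 without pool 1 of DR with RU486, whose median over the 200 was the highest of its group at 13.83, and 19 without pool 1 of AL with RU486, an array outside this comparison that bears on it by way of the pooled residual variance.

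FBtr0073821 and FBtr0100589 fell on all 4 scalings. FBtr0073821, at rank 11 of all transcripts, ran from 14.04 to 14.30 log2 on DR without RU486 with a median of 14.20, and from 13.67 to 13.79 with a median of 13.70 with RU486. The groups lay clear of each other, and the spread between pools with RU486 was 0.04. It fell by 0.47 ± 0.05 on the log2 scale (SE), or 1.39-fold lower (adjusted p = 6.81e-06), with all 8 probes down by 0.09 to 0.85. On AL its pools ran from 14.29 to 14.49 without and from 14.25 to 14.49 with RU486, and the difference was −0.00 ± 0.05. FBtr0100589 ran from 13.54 to 13.74 on DR without RU486 and from 13.20 to 13.35 with it. It fell by 0.34 ± 0.05, or 1.27-fold lower (adjusted p = 6.75e-05), with all 8 probes down, and differed by 0.07 ± 0.05 on AL. His4r lay at −0.17 ± 0.10 on DR (adjusted p = 0.23) and rdx at −0.04 ± 0.10 (adjusted p = 0.82).

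The interaction is the diet difference with RU486 minus that without it. It passed for 4 members, all lower, or 2% of the 200 against 3.19% of all transcripts lower and 3.33% higher (6.52% in either direction). The median interaction was −0.12 log2 over the members and 0.00 over all. FBtr0073821 had −0.47 ± 0.07 (SE, adjusted p = 0.00191), with a fall on DR of 0.17 ± 0.05 without and of 0.64 ± 0.05 with RU486. FBtr0100589 had −0.42 ± 0.07 (adjusted p = 0.00191), with diet differences of 0.05 ± 0.05 and −0.36 ± 0.05. The other members were picked out after their values were seen. FBtr0072030, at −0.34 ± 0.10 (adjusted p = 0.032), had diet differences of 0.31 ± 0.07 and −0.03 ± 0.07. FBtr0089509, at −0.34 ± 0.09 (adjusted p = 0.023), had 0.43 ± 0.06 and 0.09 ± 0.06. These diet differences and the drug's difference on DR share arrays with the interaction and are given side by side only. Centred on the median of the 200, FBtr0073821 lay at −0.34 (adjusted p = 0.054) and FBtr0100589 at −0.29 (adjusted p = 0.099), and 1 member passed as higher and 0 as lower. After quantile normalization 2 passed as higher and 2 as lower, and centred on array medians 0 and 2. The median interaction of the members was −0.02 with quantiles, −0.09 centred on array medians and 0.01 centred on the 200. On all 4 scalings 0 members passed. The number was 11 without pool 1 of DR with RU486, 14 without pool 1 of AL with RU486 and 10 without the 2 arrays of wide scatter. His4r lay at −0.17 ± 0.13 (adjusted p = 0.46) and rdx at −0.06 ± 0.14 (adjusted p = 0.82).

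**Figure D4:**
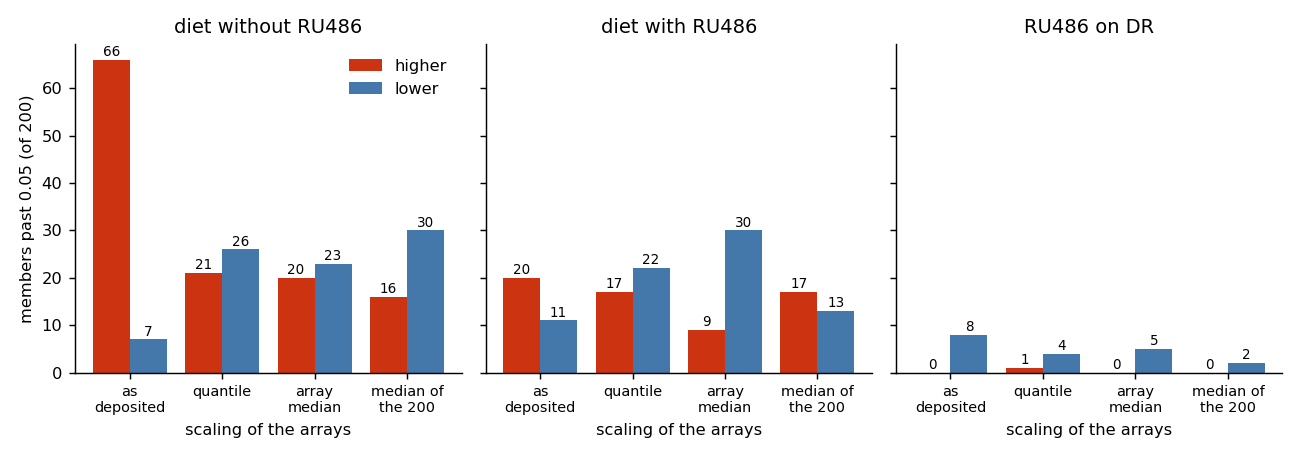
Number of the 200 members higher (red) and lower (blue) at an adjusted p under 0.05, for diet without RU486, diet with RU486 and RU486 on DR, with the arrays scaled as deposited, by quantiles, on the median of all transcripts and on the median of the 200. As deposited 66 rose and 7 fell with diet without RU486, and on the other 3 scalings 16 to 21 rose and 23 to 30 fell.

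Which members stayed level was read from intervals, since a p that misses the threshold does not show it. A member was called level where the 95% interval of its difference lay inside 1.2-fold in all 4 pairwise comparisons. By this rule 25 members (12.5%) stayed level, against 12.2% of all transcripts. A small difference can be both level and past the threshold, and 4 of the 25 also passed a diet test. FBtr0078705, FBtr0100389 and FBtr0076488 did so without RU486, at 0.15, 0.14 and −0.12 log2, and FBtr0076487 with it, at −0.14. FBtr0076488 is also 1 of the 7 that fell on all 4 scalings. The number was 1 within 1.1-fold and 99 within 1.3-fold. It was 71 after quantile normalization, 45 after centring on array medians and 63 after centring on the 200, and 6 members were level on all 4 scalings, FBtr0078705, FBtr0070155, FBtr0072924, FBtr0071676, FBtr0074311 and FBtr0100389. These 6 and the 4 just given were picked out after their values were seen. The shares of all transcripts that were level at the other limits and scalings are not given, so these counts are not set against them. For single comparisons 44 members (22%) were level for diet without RU486, against 19.8% of all, and 75 (37.5%) for diet with it, against 29.6%. For the drug on DR 85 members (42.5%) were level, against 44.4%. Of the 200, 116 passed none of the 5 tests, and 95 of those were not level either, so their intervals were too wide to place them.

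The 25 level members lay at ranks 28 to 200 and means of 13.31 to 14.04 log2. Their SD between pools had a median of 0.097 log2, against 0.167 in the other members, as the rule favours narrow intervals. FBtr0079635 had the smallest differences as deposited. Its pools ran from 13.30 to 13.53 log2 with a median of 13.36 on AL without RU486, and from 13.20 to 13.43 with a median of 13.36 with it. On DR they ran from 13.28 to 13.41 with a median of 13.33 and from 13.28 to 13.43 with a median of 13.32. All 4 groups overlapped, and its largest difference was 0.03 log2, with no interval beyond 0.13 in size. FBtr0070822 came next, with group means of 13.70 ± 0.10, 13.71 ± 0.08, 13.74 ± 0.08 and 13.71 ± 0.11 (SD, n = 6) on AL without and with and on DR without and with RU486. Its 8 probes did not all lie still. In diet without RU486 they moved by −0.19 to 0.39 log2, with 4 of 8 in the direction of the mean. Neither FBtr0079635 nor FBtr0070822 was level when the arrays were centred on the 200, where intervals reached 0.32 and 0.27.

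Set against dimmer transcripts, the members were called less often in the diet comparisons, as a description with no test. For diet without RU486 the share called was 38% at ranks 1 to 50, 36% at ranks 51 to 100 and 36% at ranks 101 to 200. It was 42% at ranks 201 to 400, 50.7% at ranks 401 to 1000 and 82.4% at ranks 8001 to 12000. The median size of the difference went from 0.17 log2 at ranks 1 to 50 to 0.51 at ranks 8001 to 12000. The dimmest class, beyond rank 12000, was lower again, at 0.15 and 47.3% called. The balance as deposited differed too, with 36% of ranks 1 to 50 higher and 2% lower, against 18.1% and 48.3% at ranks 2001 to 4000. On the other scalings 16 to 21 of the 200 rose and 23 to 30 fell. The classes are given as deposited only, so whether this balance holds on another scaling was not tested. With RU486 the share called was 16%, 12% and 17% in the same 3 classes of members and 71.7% at ranks 8001 to 12000, with 27.2% in the dimmest class. The median SE was 0.086 log2 in the members and 0.080 in the other transcripts. How far the top of the scale limits a difference in bright spots was not tested directly. No transcript probe had a mean over all arrays of 15 or more, though values on single arrays did reach it. With the 421 member probes of 14 or more left out, 197 members kept a value, and 55 of them rose and 9 fell for diet without RU486.

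**Figure D5:**
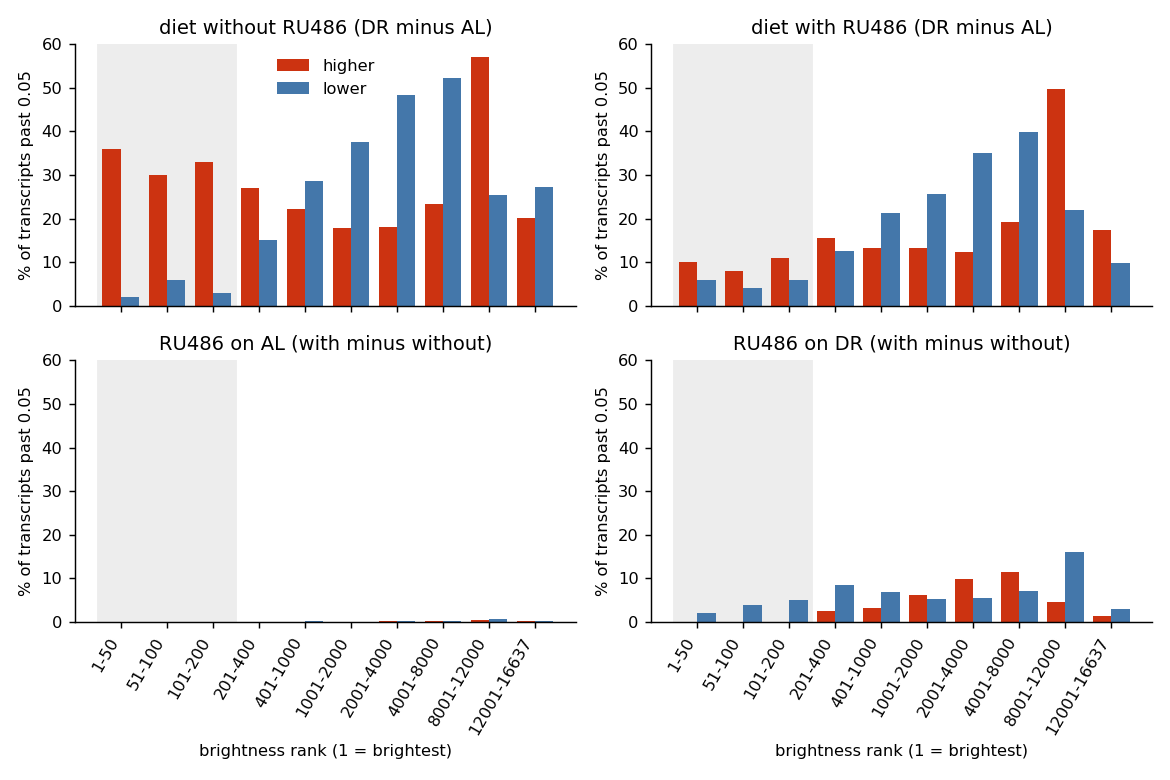
Percent of transcripts higher (red) and lower (blue) at an adjusted p under 0.05 in each class of brightness rank, for the 4 pairwise comparisons as deposited; the grey band marks the 200 members. For diet without RU486 more members were called higher (33%) than lower (3.5%), and the rest were not called. More of ranks 2001 to 4000 were called lower than higher, and more of ranks 8001 to 12000 higher than lower. For RU486 on AL the bars are near 0 throughout.

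The members' share of the summed linear brightness of all transcripts was 9.96% ± 0.66 (SD, n = 6) on AL without RU486 and 10.8% ± 0.48 on DR without RU486. With RU486 it was 10.0% ± 0.88 and 10.3% ± 0.48. The arrays of all groups overlapped, with 9.52% to 11.2% on AL and 10.3% to 11.6% on DR without RU486, and 8.49% to 10.9% on AL and 9.74% to 11.04% on DR with it. Without pool 6 of AL without RU486 the shares on AL without RU486 ran from 9.52% to 10.08%, all below those on DR without RU486. Without pool 1 of AL and pool 3 of DR with RU486 the groups with RU486 still overlapped, at 10.3% ± 0.52 and 10.4% ± 0.44 (SD, n = 5).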

How the data were processed

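Probe brightness was deposited by the authors on a log2 scale, the base being inferred from values of 6.09 to 16.51. The submitters' processing notes name limma, and background correction and normalization are not given in the sources used here. There are 137090 probes, of which 4091 are random controls and 132999 belong to 16637 transcripts. Probes sharing the first 11 characters of the identifier were averaged. An array was given a background from its random probes, averaged in 511 groups of 8, at percentile 95.

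Comparisons were fitted on all transcripts and 24 arrays with limma 3.58.1 in R 4.3.3 (lmFit, eBayes), 1 mean per group, and p-values adjusted by Benjamini-Hochberg over all transcripts at 0.05. The procedure was tested on simulated data. Named by rule are the 2 highest and 2 lowest members past the threshold per comparison, the 2 brightest, the 2 on each side of rank 200, the 2 steadiest, the 2 whose rank differs most between groups, and all with 1 symbol. The members and lists were chosen with earlier results of these data known. Pool numbers were not used as pairs, since 6 of 36 same-numbered pairs of arrays had deviations correlated above 0.1, and no pair of groups had all 6. AL with RU486 against DR with RU486 had 4 of 6. The arrays' number limits the precision. The slide of each array was not used here. Alternatives were quantile normalization, centring, probe medians, array weights, variance trends, a background filter, a pool block, other choices of members and each array left out. Figures were drawn with matplotlib 3.10.9.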

Additional observations from a re-analysis of the deposited data

Results flagged for a closer look

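In groups of 6 arrays, 1 value stood far from the rest in 11 of 64 groups tested for the described members, the members' array medians and their share of brightness, where chance flags about 1 in 20. On AL without RU486, pool 6 was high for FBtr0085893 (14.81 log2), FBtr0079635 (13.53), FBtr0070822 (13.89) and His4r, FBtr0082962 (13.85), and for the members' share of the summed brightness (11.2%). On AL with RU486, pool 1 was low for FBtr0085062 (12.63) and His4r (13.02) and high for FBtr0076488 (13.61), and pool 5 was low for FBtr0083857 (12.77). FBtr0079239 was low in pool 4 of AL without RU486 (13.86) and in pool 3 of DR with RU486 (12.53). Over all members, 117 of 800 groups had such a value, 45 of them low on pool 3 of DR with RU486, 30 low on pool 1 of AL with RU486 and 14 high on pool 6 of AL without RU486.

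As deposited, the response to diet differed with RU486 by the interaction test for FBtr0073821 (−0.47 log2), FBtr0100589 (−0.42), FBtr0072030 (−0.34) and FBtr0089509 (−0.34). These were 2% of the members, against 6.52% of all transcripts. On all 4 scalings 0 members passed.

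FBtr0076892 and FBtr0114123, picked out after their values were seen, varied most between pools of a group, with SDs of 0.482 and 0.441 log2.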

How the results depend on the processing

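The median of the differences of all transcripts for diet without RU486 was −0.07 log2 as deposited, −0.19 centred on array medians and −0.23 centred on the 200. Members past the threshold for diet without RU486 were 73 as deposited, 47 after quantile normalization, 43 centred on array medians and 46 centred on the 200. For RU486 on DR they were 8, against 5, 5 and 2 on these scalings and 15 with array weights. For the interaction they were 4, against 2 centred on array medians, 1 centred on the 200, 12 with medians over probes, 17 with array weights and 10 without the 2 arrays of wide scatter. Level members were 25, against 71, 45 and 63 on the scalings, 52 with array weights, 48 without the 2 arrays, 1 within 1.1-fold and 99 within 1.3-fold. Each array left out in turn gave 49 to 94 for diet without RU486, 25 to 33 with it, 0 for RU486 on AL, 4 to 24 for RU486 on DR, 3 to 14 for the interaction and 18 to 37 level. The cause of these changes was not tested.

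With the pool number as a block, 60, 25, 0, 8 and 4 members passed in the 5 tests and 21 were level, and no recomputed difference of a named member changed its call. In the alternatives not named here the counts stayed within 1.5 times. The limit of 15 log2 on a probe's mean over all arrays would leave out no transcript probe and was not run. The limit of 14 and the centring on the 200 were added after the data were seen. The 400 brightest gave 7.5% called for RU486 on DR and 4.5% for the interaction, against 4% and 2%.

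Some differences of the named members that missed the threshold as deposited changed sign. For rdx, RU486 on AL went from 0.02 log2 to −0.000882 with quantiles, −0.061 with probe medians and −0.00664 centred on the 200, with −0.032 to 0.11 over single arrays left out. RU486 on DR went from −0.04 to 0.030 and 0.057 with quantiles and centred on the 200, and the interaction to 0.031, 0.064 and, with probe medians, 0.048. Diet with RU486 was 0.014 with probe medians, and diet without it −0.073 to 0.038 over arrays left out. For His4r, RU486 on AL went from −0.01 to 0.095 with array weights and 0.11 without the 2 arrays. Over single arrays left out it was −0.037 to 0.11, and without pool 1 of AL with RU486 His4r passed for RU486 on DR (adjusted p = 0.0375) and for the interaction (adjusted p = 0.037).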
